A study of Mus musculus with 2 samples.

Results

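The GADD45 stress proteins and the inhibitors of cyclin-dependent kinases (CDKs) were described in mouse embryonic stem cells grown in a microfluidic chamber and on a plate. The members were taken by gene symbol: Gadd45a, Gadd45b and Gadd45g; the CIP/KIP genes Cdkn1a, Cdkn1b and Cdkn1c; and the INK4 genes Cdkn2a, Cdkn2b, Cdkn2c and Cdkn2d. Of these 10 genes, 9 had a probe set that carried their symbol alone, out of 23370 genes measured in that way. Gadd45a was covered only by a probe set that it shared with the long non-coding RNA gene E230016M11Rik, and its value is therefore given as that of the shared probe set. The genes were chosen by symbol but also selected on the measured difference between the 2 arrays, which was already known, so their differences describe these arrays and are not tested.

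The cells were of the ES-D3 line, an established pluripotent line of strain 129S2/SvPas. They were grown in a microchamber (1 array) or on a 6-well plate (1 array), in both cases at a seeding density of 20000 cells per square centimetre and for 3 days, with serum at 15% and leukaemia inhibitory factor (LIF) at 1000 U. Total RNA was hybridised to Affymetrix Mouse Gene 2.0 ST arrays, whose probes lie along the exons of each transcript. Levels are log2 values normalized by the authors with robust multi-array average (RMA), and every difference is microchamber minus 6-well plate, so that a negative value means a lower level in the microchamber. With 1 array in each condition there is no replicate check, and no p-value, standard deviation between cultures or interval can be given. RMA gives both arrays the same distribution, so a loss of most transcripts together would not be seen, and in bulk RNA fewer cells of a type and less RNA per cell cannot be told apart.

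GADD45 proteins are small acidic proteins induced by DNA damage, growth arrest and other stress. They bind and activate the kinase MEKK4 (Map3k4) upstream of p38 and JNK, interact with PCNA and p21, and have been linked to active DNA demethylation. CDK inhibitors act on the kinases that drive the cell cycle: CIP/KIP proteins bind cyclin and CDK complexes, mainly those of CDK2, while INK4 proteins bind CDK4 and CDK6 and keep cyclin D away from them. Mouse embryonic stem cells cycle with a short G1 phase and are known for high CDK2 activity and little restraint by these inhibitors.

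The promoters of the GADD45 genes and of Cdkn2d are shown because these are 4 of the 5 members with the lowest differences; the table of promoters held none for the other, Cdkn1c. The sequences are those of RefSeq on build GRCm38.p6, from 250 bases before to 50 bases after the annotated start, written 5′ to 3′ on the gene's own strand. Capitals mark ACGTG and GCGTG on either strand, the core letters of the hypoxia response element; CACGTG, a palindrome known as an E-box, contains ACGTG on both strands.
Gadd45a, chr6:67037358-67037657, minus strand: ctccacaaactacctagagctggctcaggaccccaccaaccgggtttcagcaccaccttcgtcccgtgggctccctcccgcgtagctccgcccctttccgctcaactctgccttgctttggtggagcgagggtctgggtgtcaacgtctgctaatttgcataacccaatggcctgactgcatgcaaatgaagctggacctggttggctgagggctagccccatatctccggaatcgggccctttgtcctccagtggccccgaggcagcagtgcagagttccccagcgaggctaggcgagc
Gadd45b, chr10:80929841-80930140, plus strand: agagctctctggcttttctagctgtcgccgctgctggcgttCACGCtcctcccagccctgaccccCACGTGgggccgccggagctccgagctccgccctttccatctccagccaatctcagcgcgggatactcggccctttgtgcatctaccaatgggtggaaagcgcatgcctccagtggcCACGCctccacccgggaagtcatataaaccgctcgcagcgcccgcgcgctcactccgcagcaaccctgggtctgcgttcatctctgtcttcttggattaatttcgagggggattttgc
Gadd45g, chr13:51846425-51846724, plus strand: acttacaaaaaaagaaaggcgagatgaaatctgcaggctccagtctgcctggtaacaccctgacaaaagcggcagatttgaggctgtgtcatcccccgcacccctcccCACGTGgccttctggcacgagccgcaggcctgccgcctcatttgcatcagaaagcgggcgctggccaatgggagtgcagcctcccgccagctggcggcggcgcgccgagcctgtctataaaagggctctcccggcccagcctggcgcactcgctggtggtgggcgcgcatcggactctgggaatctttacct
Cdkn2d, chr9:21291160-21291459, minus strand: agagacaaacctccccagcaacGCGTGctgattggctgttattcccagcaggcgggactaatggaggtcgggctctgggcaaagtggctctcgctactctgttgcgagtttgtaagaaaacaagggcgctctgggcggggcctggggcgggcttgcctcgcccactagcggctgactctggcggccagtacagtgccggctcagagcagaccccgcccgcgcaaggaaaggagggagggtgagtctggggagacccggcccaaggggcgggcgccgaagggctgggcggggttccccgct

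Every member read lower in the microchamber. All 9 genes with their own probe set lay below 0, as did the shared probe set of Gadd45a; among all 19098 genes past the level filter, 52.3% lay below 0 and 46.9% above. All 10 lay at or above the 20th percentile on both arrays, the bound of that filter. At least 2-fold lower were 2 of the 10, Gadd45b and Cdkn1c, where 0.445% of all genes were that much lower and 0.346% that much higher. The share at least 2-fold lower depended on level. In 4 groups of equal size by mean level it was 0% in the lowest, 0.23% in the second, 0.84% in the third and 0.71% in the highest. Cdkn1c lay in the third group and Gadd45b in the highest. At least 1.5-fold lower were 3 of the 10, with Gadd45g as the third, against 2.77% of all genes lower and 2.47% higher by that much. The median difference of the 10 was -0.40, and the median of all genes was -0.01. Since the members were chosen with these differences known, the counts are given beside those of all genes and nothing is read from their excess.

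**Figure D1:**
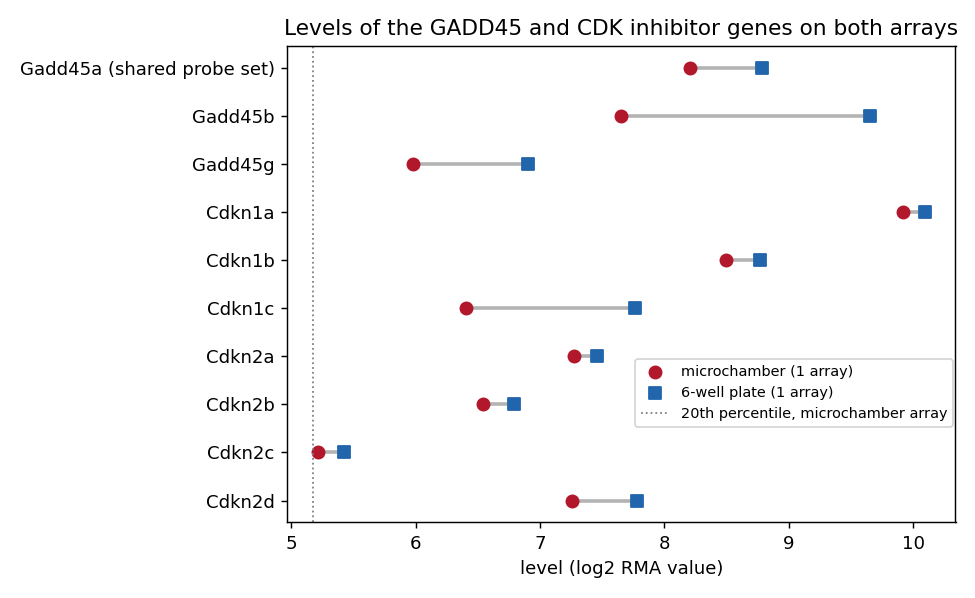
Levels (log2 RMA value) of the 10 genes on the microchamber array (circles) and the 6-well plate array (squares), 1 array each, with the grey line joining the pair. The circle lies left of the square for every gene; the widest gaps are those of Gadd45b (7.66 in the microchamber, 9.66 on the plate), Cdkn1c (6.40 in the microchamber, 7.76 on the plate) and Gadd45g (5.98 in the microchamber, 6.90 on the plate).

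The GADD45 family held the lowest member. Gadd45b, which is induced by NF-kappaB and TGF-beta signalling and protects cells from JNK-driven death, had 7.66 in the microchamber and 9.66 on the plate. This difference of -2.0 is 4.0-fold, and only 7 of the 19098 genes, Gadd45b included, lay as low or lower. The gene lies on chromosome 10 (80930091 to 80932204, GRCm38). Its level stood well above the array median for probe sets with 1 symbol on both arrays, 6.10 in the microchamber and 6.13 on the plate.

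Gadd45g, which is induced by cytokines, had 5.98 in the microchamber and 6.90 on the plate. The difference of -0.92 is 1.90-fold, and 116 genes (0.607%) lay as low or lower. Gadd45g lies on chromosome 13 (51846675 to 51848475). Its microchamber value lay just below the array median and its plate value above it.

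Gadd45a, the member first described as a p53 target after DNA damage, is on chromosome 6 (67035096 to 67037407). The probe set it shares with E230016M11Rik had 8.21 in the microchamber and 8.79 on the plate, a difference of -0.58 or 1.498-fold, just short of the 1.5-fold threshold. The long non-coding RNA gene (67036599 to 67080652) overlaps the start of Gadd45a, and a second probe set named for E230016M11Rik alone had 5.42 in the microchamber and 5.27 on the plate. That probe set differed by 0.15, the opposite direction to the shared one. All 3 GADD45 genes thus read lower in the microchamber, with a family median of -0.92.

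Among the CIP/KIP genes the differences were uneven. Cdkn1c encodes p57, the imprinted member of the family that is expressed mainly from the maternal allele. It had 6.40 in the microchamber and 7.76 on the plate, a difference of -1.36 or 2.57-fold, and 38 genes (0.199%) lay as low or lower. Cdkn1b encodes p27, the inhibitor that accumulates in quiescent cells, and had 8.50 in the microchamber and 8.77 on the plate, a difference of -0.27 or 1.21-fold. Cdkn1a encodes p21, the main CDK inhibitor induced by p53, and had 9.92 in the microchamber and 10.10 on the plate, a difference of -0.18 or 1.13-fold. As many as 21.9% of all genes were as low as Cdkn1a or lower, and 13.7% as low as Cdkn1b. The genes lie on chromosome 7 (Cdkn1c, 143458339 to 143461059), chromosome 6 (Cdkn1b, 134920401 to 134925525) and chromosome 17 (Cdkn1a, 29090979 to 29100722).

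The INK4 genes were closer together, with none 2-fold apart and a median of -0.23. Cdkn2d, which encodes the INK4 protein p19 and is known to vary through the cell cycle, had 7.26 in the microchamber and 7.78 on the plate. Its difference of -0.52 is 1.43-fold, and 3.78% of genes lay as low or lower. Cdkn2b, which encodes p15 and is induced by TGF-beta, had 6.55 in the microchamber and 6.79 on the plate, a difference of -0.25. Cdkn2a encodes p16 and, in another reading frame, the p53 activator p19ARF; its single probe set does not separate the transcripts and had 7.27 in the microchamber and 7.46 on the plate, a difference of -0.18. Cdkn2c, which encodes p18, had 5.21 in the microchamber and 5.42 on the plate, a difference of -0.21. Both Cdkn2c values lay close to the 20th percentile of 5.18 in the microchamber and 5.17 on the plate, and small differences at that level do not show equal expression. Cdkn2a (89274473 to 89294619), Cdkn2b (89306289 to 89311032) and Cdkn2c (109660876 to 109666756) lie on chromosome 4 and Cdkn2d on chromosome 9 (21288459 to 21291421).

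The spread of differences within this pair of arrays depended on the level. Among genes past the filter, split by mean level into 4 groups of equal size, the standard deviation of the difference was 0.13 in the lowest group, 0.24 in the second, 0.36 in the third and 0.35 in the highest. Gadd45b lay 5.74 standard deviations of its own level group below 0, Gadd45g 3.79 and Cdkn1c 3.75. The shared probe set of Gadd45a lay 1.67 below 0, Cdkn2c 1.60, Cdkn2d 1.44 and Cdkn2b 1.01. Cdkn1b, Cdkn1a and Cdkn2a lay within 1 standard deviation of their level group. Each of these genes had 1 probe set, so no second probe set of the same gene was available as a check. In the 901 genes with 2 distinct probe sets, the within-gene standard deviation of the difference was 0.20, which exceeds the differences of Cdkn1a and Cdkn2a and is near that of Cdkn2c.

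**Figure D2:**
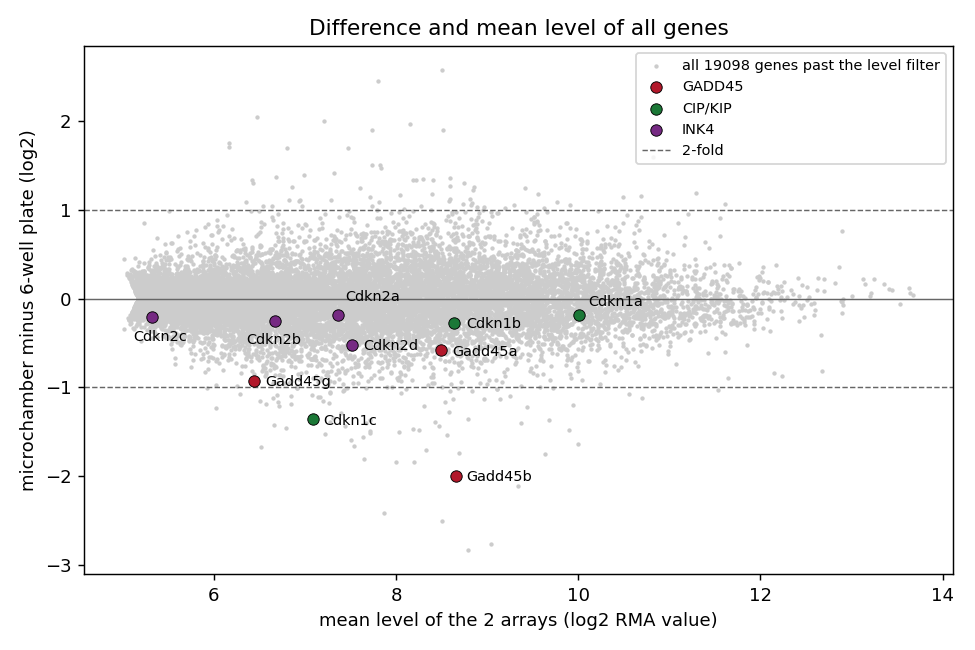
Difference (microchamber minus 6-well plate, log2) against the mean level of the 2 arrays for all 19098 genes past the filter (grey) and the 10 members, coloured by family. Dashed lines mark 2-fold; Gadd45b at -2.0 and Cdkn1c at -1.36 lie below the lower one and Gadd45g at -0.92 just above it, while the other members lie inside the grey cloud.

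All promoter windows of the members, including those not shown above, were searched for short motifs on both strands, as a description of the letters. The table of RefSeq promoters held 12 windows for 9 of the members, with more than 1 start for Cdkn1a, Cdkn2a and Cdkn2c, and none for Cdkn1c. CACGTG was present in 3 of the 12 windows, those of Gadd45b, Gadd45g and the downstream start of Cdkn2c, and in 7.15% of all 32851 windows. In Gadd45b its first base lay at -185 from the start, in Gadd45g at -142 and in Cdkn2c at +35. Gadd45b also held GCGTG at -209 and -68, both on the minus strand. GCGTG occurred in 7 of the 12 windows, 1 each of Gadd45b and 6 CDK inhibitor genes, and in 32.4% of all windows. ACGTG, the other core form, was in the same 3 of the 12 windows as CACGTG and in 19.6% of all windows.

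A TATA box, searched as TATAAA, was found only in Gadd45b at -46 and Gadd45g at -27 among the 12 windows, where 13.6% of all windows held it. CCAAT was found in 7 of the 12 windows and in 37.4% of all, and the GC box GGGCGG in 9 of the 12 and in 35.7% of all. TGANTCA, the AP-1 site, was in none of the 12 and in 7.81% of all. The Gadd45a window held neither ACGTG nor GCGTG. The share of G and C in the members' windows ran from 44.0% in the downstream window of Cdkn2c to 77.0% in the upstream window of Cdkn2a, with a median of 52.7% over all windows. The part of base composition in the motif counts was not tested.

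The nearest measured genes on either side of each member were set beside it to see whether the loci differed as a whole. Gadd45b had Lmnb2, a nuclear lamin gene 11.8 kb away, at -0.33 and Gng7, a G protein subunit gene 16.4 kb away, at 0.21. On either side of Gadd45a lay Gng12, 13.7 kb away, at -0.44 and A430010J10Rik, 120 kb away, at 0.13. Gadd45g had the semaphorin gene Sema4d, 53.0 kb away, at -0.71 on one side and 4921525O09Rik, 248 kb away, at 0.11 on the other. Cdkn1c had the potassium channel gene Kcnq1, 31.3 kb away, at -0.07 and the transporter gene Slc22a18, 12.7 kb away, at -0.47. Cdkn2a and Cdkn2b neighbour each other at 11.7 kb and differed by -0.18 and -0.25, with the methylthioadenosine phosphorylase gene Mtap beyond Cdkn2a at 0.00. Cdkn1a and Cdkn1b lay between neighbours that all read at or above 0: Srsf3 at 0.23 and Rab44 at 0.01 for Cdkn1a, and 2810454H06Rik at 0.12 and Apold1 at 0.17 for Cdkn1b. Ap1m2, an adaptor subunit gene 3.19 kb from Cdkn2d, was at -0.49, close to the -0.52 of Cdkn2d, while Kri1 on its other side was at -0.05. A430010J10Rik, 4921525O09Rik, Kcnq1 and 2810454H06Rik lay in the lowest of the 4 groups by mean level. Small differences at that level do not show that the rest of a locus was unchanged.

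**Figure D3:**
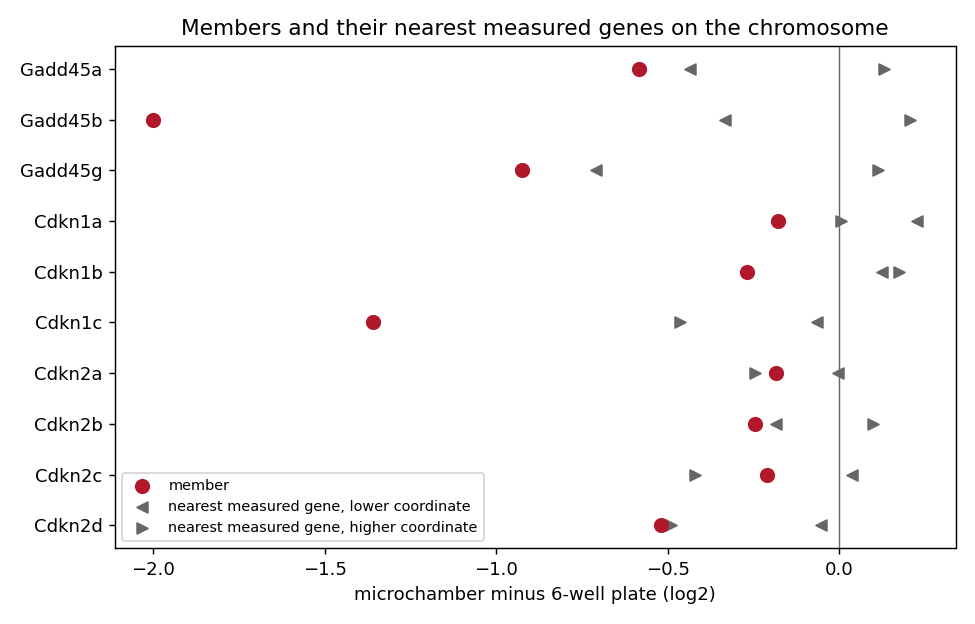
Difference (microchamber minus 6-well plate, log2) of each member (circle) and of the nearest measured gene at lower (left-pointing) and higher (right-pointing) coordinates. Every member except Cdkn2a and Cdkn2c lies below both neighbours. Cdkn2b at -0.25 lies below Cdkn2a, Faf1 at -0.42 lies below Cdkn2c, and Ap1m2 at -0.49 lies beside Cdkn2d. The gaps from Cdkn2b to Cdkn2a, Cdkn2d to Ap1m2 and Gadd45a to Gng12 are smaller than 0.20, the within-gene standard deviation. Dmrta1, the other neighbour of Cdkn2b, and 9630013D21Rik, the other neighbour of Cdkn2c, did not pass the level filter.

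Cdkn1c lies in an imprinted domain on distal chromosome 7, and genes of that domain and of the adjacent Igf2 and H19 domain were examined as a list. Of its 12 genes past the filter 7 lay below 0, and the median was -0.02. Over all genes past the filter 52.3% lay below 0 and 46.9% above, as background for this and the later lists. The 1 gene past 2-fold was Ascl2, a transcription factor of trophoblast, with 6.73 in the microchamber and 8.16 on the plate, a difference of -1.43. The others are named outside the rule, after their values were seen. Phlda2, a growth-restraining gene of placenta, was at -0.49 and Slc22a18 at -0.47. Kcnq1ot1, a non-coding RNA of the domain, had 7.68 in the microchamber and 7.14 on the plate, a difference of 0.54. Kcnq1 was at -0.07 with both values near the 20th percentile, Igf2 at -0.01, Tspan32 at 0.06, Tssc4 at 0.20 and Cd81 at 0.24. The part of imprinting in these differences was not tested.

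A list of GADD45 partners held kinases of the p38 and JNK branch through which GADD45 proteins signal. It also held Gadd45gip1 and Pcna, which are not kinases of that branch. Of these 13 genes, 9 lay below 0, where 52.3% of all genes did. None was 2-fold apart, and the median was -0.10. The lowest were the p38 kinases Mapk13 at -0.54 and Mapk11 at -0.52, and the highest were Map2k7, which activates JNK, at 0.26 and Mapk14, the p38 alpha kinase, at 0.25. Named outside the rule, Map3k4, the kinase that GADD45 proteins bind, had 7.55 in the microchamber and 7.72 on the plate, and Pcna had 11.46 on both arrays.

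Genes of DNA demethylation and excision repair linked to GADD45 were split, with 5 of 11 below 0 and a median of 0.04. The lowest were the cytidine deaminase Apobec1 at -0.89, with 7.56 in the microchamber and 8.45 on the plate, and the repair nuclease gene Ercc5 at -0.47. The highest were Ercc4, another repair nuclease gene, at 0.44 and the dioxygenase Tet2 at 0.21. Tdg and Apex1 were covered only by probe sets with several symbols and were not used.

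Of 23 transcription factors that act on GADD45 and CIP/KIP genes, 15 lay above 0, where 46.9% of all genes did. Their median was 0.15, and 0.087 with shared probe sets added. Egr1, an immediate early transcription factor, had 9.79 in the microchamber and 7.21 on the plate, a difference of 2.58, and was the only gene of the list 2-fold apart. Others were named outside the rule. Myc, which represses Cdkn1a and Cdkn2b with its partner Zbtb17, was at 0.97, the NF-kappaB subunit gene Rela at 0.58 and the stress factor Atf4 at 0.52. Trp53, which activates Gadd45a and Cdkn1a, was at 0.25, Foxo1 at 0.01, Foxo3 at -0.22, Foxo4 at -0.38 and Hif1a at -0.05. These are transcript levels, and the activity of p53, FOXO and HIF proteins is set largely after transcription.

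Of the 11 cyclins and kinases measured, on which the inhibitors act, 7 lay below 0, where 52.3% of all genes did, and the median was -0.26. Ccnd2, the cyclin D2 gene, was the only one 2-fold apart, with 6.30 in the microchamber and 7.40 on the plate, a difference of -1.10. Named outside the rule, the cyclin D3 gene Ccnd3 was at -0.78, the cyclin E gene Ccne1 at -0.67 and Cdk2 at -0.43, whereas Ccnd1 was at 0.08 and Cdk6 at 0.12. Cdk4, Ccne2 and Ccnb1 were covered only by shared probe sets and were not used. Among the RB family and E2F factors, which act below these kinases, 9 of 13 lay below 0, against 52.3% of all genes, with a median of -0.11. E2f1 was at -0.49 and E2f7, a repressor, at -0.27, while E2f3 was at 0.37 and Tfdp2, a dimer partner, at 0.11.

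Genes that turn over CIP/KIP proteins differed by less, from -0.26 for the ubiquitin ligase scaffold Cul4b and -0.16 for Cdc20 to 0.19 for Cul1 and 0.18 for Dtl. Of 13 in that list 8 lay below 0, and the median was -0.05. Named outside the rule, Skp2, which recognises p27, had 10.42 in the microchamber and 10.40 on the plate. Regulators of the INK4 locus, mostly Polycomb genes, had 9 of 19 below 0, none 2-fold apart and a median of 0.07. Tbx3, a repressor of the locus, was highest at 0.83, followed by the Polycomb gene Pcgf2 at 0.37, and the lowest were Id1, an inhibitor of helix-loop-helix factors, at -0.57 and the histone methyltransferase Ezh2 at -0.53. Bmi1 did not pass the level filter, and Kdm2b and Npm1 had only shared probe sets.

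Other CDK-binding and cyclin G genes had 6 of 9 below 0, against 52.3% of all genes, and a median of -0.02. In this list 1 gene was 2-fold lower and none 2-fold higher. Ccng2, an unconventional cyclin linked to arrest and known as a FOXO target, had 6.97 in the microchamber and 8.47 on the plate, a difference of -1.495. Named outside the rule, Ccng1, a p53 target, was at 0.22, and Cdkn3, a phosphatase that acts on CDK2, had 7.31 in the microchamber and 6.66 on the plate, a difference of 0.66.

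**Figure D4:**
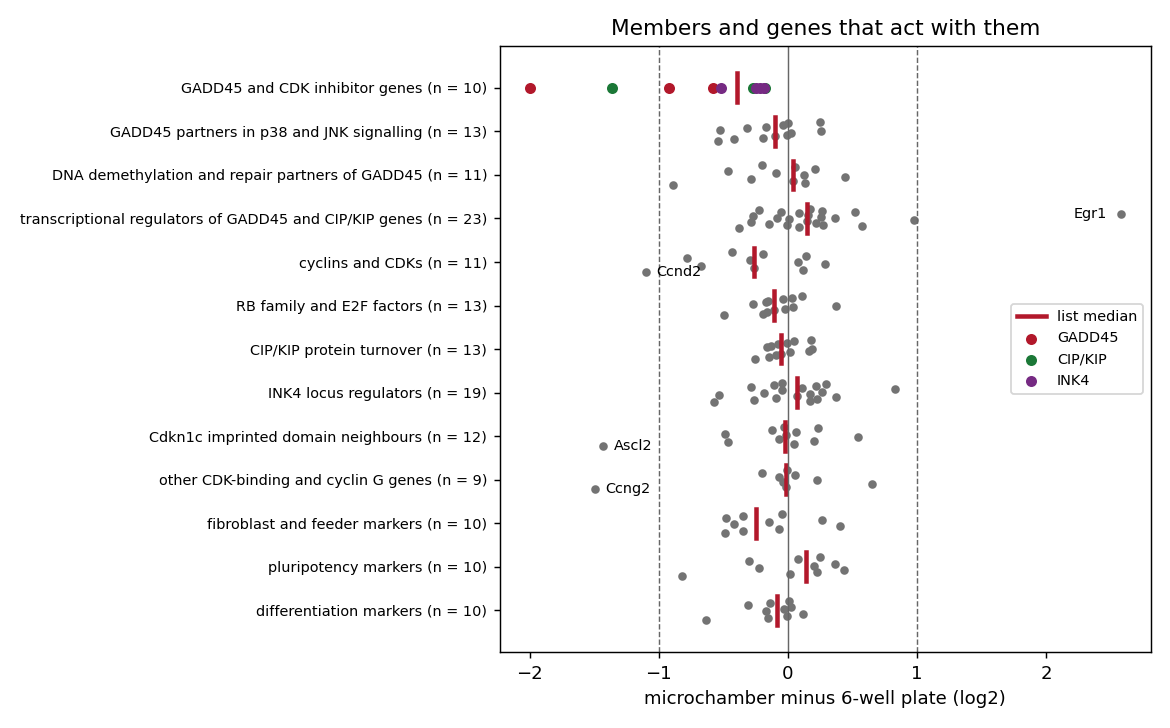
Difference (microchamber minus 6-well plate, log2) of every member (top, coloured by family) and of each gene past the filter in the 12 lists (grey), with red bars for the medians and n the genes past the filter. Labelled genes are at least 2-fold apart; the median of the members is -0.40, and those of the lists run from -0.26 for cyclins and CDKs to 0.15 for transcriptional regulators.

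The gene nearest to Gadd45b in its values on both arrays was A2m, a protease inhibitor gene, with 7.62 in the microchamber and 9.63 on the plate. The next were the predicted genes Gm1564, with 7.82 in the microchamber and 9.56 on the plate, and 1700001L05Rik, with 7.80 in the microchamber and 9.33 on the plate. Likeness was the Euclidean distance over the 2 log2 values, which was 0.04 for A2m, and with 2 values per gene it carries little information.

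Cell identity was checked with marker lists. All 10 pluripotency markers lay above the median of probe sets with 1 symbol on both arrays, from Dppa5a with 6.27 in the microchamber and 6.57 on the plate upwards, and their median levels were 11.06 in the microchamber and 11.14 on the plate. Of the 10, 7 lay above 0, where 46.9% of all genes did, with a median difference of 0.14. Named outside the rule, Nanog had 12.17 in the microchamber and 12.10 on the plate. Sall4 at 0.44 and Pou5f1 at 0.36 were highest, and Tdgf1 at -0.82 and Dppa5a at -0.30 were lowest. Fibroblasts and feeder cells express several of the CDK inhibitors. Of the 10 markers of these cells past the filter, 8 lay below 0, where 52.3% of all genes did, with a median of -0.25. That median was -0.072 without the filter and -0.35 with the filter at the median. Pdgfrb at -0.49 and Twist2 at -0.48 were lowest and S100a4 at 0.40 and Pdgfra at 0.26 highest. Twist2 with 5.30 in the microchamber and S100a4 with 5.16 on the plate lay close to the 20th percentile. The summed linear level of all 13 markers was 1006 in the microchamber and 1186 on the plate, while, named outside the rule, the matrix genes Dcn, Lum and Postn lay below the 20th percentile on both arrays. Differentiation markers had 7 of 10 below 0, against 52.3% of all genes, and a median of -0.08. The differences ran from Krt18 at -0.63 and Eomes at -0.31 to Sox17 at 0.11 and Sox1 at 0.03. Median levels of these markers were 6.08 in the microchamber and 6.17 on the plate, near the array medians of 6.10 and 6.13. Sox1 and, named outside the rule, T, Pax6 and Cdx2 lay below those array medians on both arrays. Such low levels limit what the markers can show. The part of other cell types in the differences of the members was not tested.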

How the data were processed

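Total RNA of 2 cultures was measured, 1 array each. The authors corrected probe intensities for background, summarised and normalized them by RMA and deposited log2 values, per the series design text, which also names a filter on raw signal. Affymetrix Expression Console 1.4.1 and Transcriptome Analysis Console 3.0 are named per the submitters' processing notes; the probe set annotation is on mm10, per the file headers. The authors' deposited table also holds an absolute fold as a ratio and a log2 fold change, plate minus chamber, which equals the difference of the log2 values.

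Of 33793 probe sets, 24708 with 1 symbol were used and averaged per gene, giving 23370 genes. A gene passed the filter when its higher array reached the 20th percentile of these probe sets on that array, which left 19098 genes. Counts used thresholds of 2-fold and 1.5-fold. Genes were matched to RefSeq (GRCm38.p6) by symbol. The members and lists were chosen with earlier results of these data known. Named are all members; per list, genes at least 2-fold apart, otherwise the 2 highest and 2 lowest; and the 3 genes nearest to Gadd45b. Genes outside this rule are marked. Chromosomal neighbours and motifs were chosen with the values seen. The counting, centring and loess steps (Python 3.11.15, pandas 2.3.3, statsmodels 0.14.6) were tested on simulated data. The number of arrays limits the precision.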

Additional observations from a re-analysis of the deposited data

How the results depend on the processing

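The differences of the 10 members stayed below 0 in all 48 recomputations, in which differences were centred on their median, a loess trend on mean level (span 0.3) was removed, the brightest probe set was taken, shared probe sets were added under their first symbol, or the value table of the series was read. Only centring and the loess trend could move a member. The other settings returned the same values by construction, since each member has 1 probe set and the series values equal the authors' values. The largest shift of a member was 0.04. For Gadd45a only centring, the loess trend and the value table applied, since its 1 probe set is shared. At 1.5-fold, 472 genes were higher and 529 lower in the microchamber, against 66 higher and 85 lower at 2-fold. The median of the transcriptional regulators was 0.087 with shared probe sets added, against 0.15. The median of the fibroblast and feeder markers was -0.072 without the filter and -0.35 with the filter at the median, against -0.25, and that of the differentiation markers was -0.16 with the filter at the median, against -0.08. These filters differ in which genes they keep. No paired analysis was possible because each condition had 1 array. Signal near the 20th percentile limits what Cdkn2c can show.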
